A study of Mus musculus with 13 samples.

Results

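Collagen genes were taken as the protein-coding genes of the GENCODE vM21 annotation (mouse, mm10) whose symbol has the form Col, number, a, number. The rule gave 44 genes of 21938 protein-coding genes, from Col1a1 to Col28a1, and it used no measured value. They fall into 11 fibrillar, 8 basement-membrane and 25 other collagens, the last holding fibril-associated, beaded-filament, short-chain, transmembrane and anchoring-fibril types. Each gene was followed through its window, the gene body plus 10 kb on each side, and the windows together covered 6.18 Mb.

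The libraries came from primary fibroblasts, passaged once, that were grown out of lower abdominal muscle (LAM). The donors were Aromhum mice, which carry a human aromatase transgene introduced on a bacterial artificial chromosome, and all 4 treatment groups share this genotype, so the series holds no wild-type cells. ESR1, the estrogen receptor α, was immunoprecipitated with its DNA and the DNA was sequenced (ChIP-Seq). The groups were vehicle (ethanol and DMSO), estradiol (E2) at 10 nM, fulvestrant at 100 nM, and both agents at these doses, called the combination here. Fulvestrant or DMSO was given for 3 h in serum-free medium before E2 or ethanol, and cells were harvested 1 h later. Each group had 3 libraries, and nothing in the labels says that they came from separate mice or cultures, so p-values measure the spread between these libraries, which may be technical. The input sample is not analysed here. Peaks do not measure expression, so the fibroblast label could not be checked against marker levels.

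Collagens are secreted proteins whose chains wind into helical trimers. The fibrillar collagens, led by type I and type III, build the tension-bearing fibrils that accumulate in fibrosis, and type IV collagen forms the sheet-like network of basement membranes that wraps muscle fibers and vessels. Other collagens coat fibrils, form beaded filaments, or span the cell membrane. ESR1 is a nuclear receptor that binds DNA at estrogen response elements (ERE) and also reaches DNA through other factors such as AP-1. Fulvestrant is an antiestrogen that lowers the amount of receptor protein.

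The letters under collagen peaks that carried an ERE are shown first, since there the receptor's own element lay within 100 bp of a summit. An ERE was searched on the reference genome as GGTCA, any 3 bases, TGACC, with at most 1 mismatch in the 10 fixed bases, within 100 bp of the strongest summit. The element reads the same on both strands. Among the 171 collagen regions with a peak in 6 or more libraries, 3 held such an element, at Col4a1, Col5a1 and Col5a3, and a further region at Col5a1 with peaks in 4 libraries held an element without mismatch. Over all 1108 collagen regions, 8 held an ERE, 2 of them without mismatch. Each sequence is 201 bases of the plus strand of GRCm38.p6 (mm10) centred on the strongest summit. Relative to that summit, the centres of the elements shown lay at -78 bp (Col4a1), 72 and 34 bp (Col5a1) and -91 bp (Col5a3). Capitals mark the ERE, and in the Col5a3 and Col24a1 sequences also the AP-1 sequence TGANTCA, which in Col5a3 overlaps the end of the ERE.
Col4a1 intron, chr8:11285574-11285774, peak in 7 libraries, ERE without mismatch: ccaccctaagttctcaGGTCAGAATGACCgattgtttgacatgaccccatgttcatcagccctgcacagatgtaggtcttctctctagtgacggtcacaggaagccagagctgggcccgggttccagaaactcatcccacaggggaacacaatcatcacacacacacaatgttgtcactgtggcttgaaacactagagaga
Col5a1 intron, chr2:27907020-27907220, peak in 4 libraries, ERE without mismatch: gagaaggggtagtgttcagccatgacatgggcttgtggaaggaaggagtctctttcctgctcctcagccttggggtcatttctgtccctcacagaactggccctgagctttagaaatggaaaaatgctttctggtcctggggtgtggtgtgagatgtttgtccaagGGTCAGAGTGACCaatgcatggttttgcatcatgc
Col5a1 intron, chr2:27917744-27917944, peak in 7 libraries, ERE with 1 mismatch: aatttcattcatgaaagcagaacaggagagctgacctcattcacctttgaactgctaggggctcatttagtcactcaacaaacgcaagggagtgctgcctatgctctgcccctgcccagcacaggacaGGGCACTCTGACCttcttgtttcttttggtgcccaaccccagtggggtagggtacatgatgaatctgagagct
Col5a3 downstream, chr9:20760940-20761140, peak in 12 libraries, ERE with 1 mismatch: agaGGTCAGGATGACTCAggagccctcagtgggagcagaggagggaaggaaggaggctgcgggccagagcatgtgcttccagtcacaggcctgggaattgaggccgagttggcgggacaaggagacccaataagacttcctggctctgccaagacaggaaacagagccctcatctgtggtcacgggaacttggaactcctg
The next pair is shown because both lie in introns of Col24a1, where peaks were stronger in the libraries given E2, and neither has an ERE with at most 1 mismatch.
Col24a1 intron, chr3:145375376-145375576, peak in 10 libraries, AP-1 sequence: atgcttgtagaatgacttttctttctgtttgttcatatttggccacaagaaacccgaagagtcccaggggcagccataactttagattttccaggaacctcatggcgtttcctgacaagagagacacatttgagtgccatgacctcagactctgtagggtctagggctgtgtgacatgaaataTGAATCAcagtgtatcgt
Col24a1 intron, chr3:145521750-145521950, peak in 11 libraries, none of the motifs: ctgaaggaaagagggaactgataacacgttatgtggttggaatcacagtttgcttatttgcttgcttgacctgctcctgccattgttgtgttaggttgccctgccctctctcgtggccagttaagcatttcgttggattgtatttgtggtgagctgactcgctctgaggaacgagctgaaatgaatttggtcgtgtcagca

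Each library was deposited as a list of peaks, places where ESR1 fragments exceeded the local background. The lists held 34293 to 104571 peaks, of which 187 to 449 had their summit in a collagen window. A pair of libraries stood apart. In E2 replicate 1, 59.4% of the peaks had a summit in mostly repeat-masked sequence and the relative depth recovered from the background was 39.1% of the median library. In fulvestrant replicate 2 these values were 27.9% and 75.8%, against 5.57% to 7.79% and 92.0% to 106% in the other 10. Results are given with and without these 2 libraries where they rest on them. Pgr and Greb1, well-known ESR1 target genes, had peaks in every library, as did 46.8% of all protein-coding genes. Pgr had 6 to 10 peaks in the libraries given E2 against 2 to 4 in those not given E2. Greb1 had 2, 2 and 4 with vehicle, 5, 4 and 4 with E2, 3, 4 and 5 with the combination and 3, 4 and 3 with fulvestrant. For Greb1 the libraries given E2 and those not given E2 overlapped.

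Collagen windows carried more ESR1 peaks with E2 than with vehicle, but the whole lists were longer too. With vehicle, 301, 187 and 245 peaks fell in collagen windows (244 ± 57.0, SD, n = 3), and with E2 379, 397 and 449 (408 ± 36.3). With the combination there were 250, 316 and 442 peaks (336 ± 97.5), and with fulvestrant 269, 425 and 284 (326 ± 86.1). Every E2 library lay above every vehicle library, while the fulvestrant and combination groups overlapped the E2 group.

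As a share of each list, the E2 and vehicle groups overlapped. Collagen peaks made up 0.587%, 0.545% and 0.616% of the vehicle lists and 0.362%, 0.652% and 0.651% of the E2 lists. The low value is E2 replicate 1, in which 34.6% of the collagen peaks were on repeats, and the other 2 E2 libraries lay above all 3 vehicle libraries. With the combination the shares were 0.611%, 0.621% and 0.667%, and with fulvestrant 0.632%, 0.526% and 0.621%. The ratio of E2 to vehicle was 1.67 in numbers of peaks and 0.952 in peaks per 10000 of the list, and 1.12 in the latter measure without E2 replicate 1 and fulvestrant replicate 2. Among the 30000 strongest peaks of each list, the E2 libraries held 97, 170 and 181 collagen peaks and the vehicle libraries 159, 164 and 184, so the groups overlapped.

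**Figure D1:**
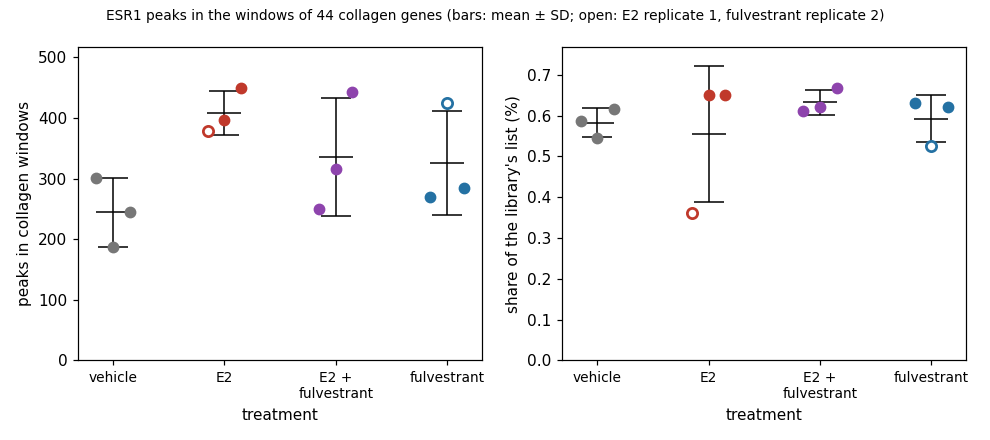
Peaks with a summit in a collagen window (left, number; right, percent of the library's list) for the 3 libraries of each treatment, with the mean and SD as black bars and E2 replicate 1 and fulvestrant replicate 2 as open circles. The E2 libraries (379 to 449 peaks) lie above the vehicle libraries (187 to 301) on the left, and on the right E2 replicate 1 is lowest at 0.362%.

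Per length of window, ESR1 peaks were densest at the fibrillar collagens. Fibrillar collagen windows held 10.1 ± 2.25 peaks per 100 kb (SD over the 12 libraries), basement-membrane windows 4.41 ± 1.58 and the other collagens 3.97 ± 1.24. Over the windows of all protein-coding genes the density was 3.24 ± 0.858. In each of the 12 libraries the fibrillar class was densest, at 6.48 to 14.1 peaks per 100 kb against 2.41 to 7.24 for the basement-membrane class and 1.98 to 5.76 for the others. Of single genes, the median fibrillar collagen had 11.4 peaks per 100 kb, the median basement-membrane collagen 3.40, the median of the others 4.68 and the median of the 19600 protein-coding genes with a peak 3.80. These are levels of peak number per length of window. Collagen windows were long, with a median of 134 kb against 40.1 kb for all genes with a peak. The classes differed in this too, and the fibrillar class had a shorter median window than the basement-membrane and other classes. Whether window length bears on the densities of the classes was not tested.

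By treatment, fibrillar windows held 8.19 ± 1.87 peaks per 100 kb with vehicle, 11.7 ± 2.81 with E2, 10.2 ± 2.40 with the combination and 10.2 ± 1.14 with fulvestrant (n = 3 each). Basement-membrane windows held 2.90 ± 0.721, 5.29 ± 0.441, 4.63 ± 1.94 and 4.83 ± 2.09 in the same order. The other collagens held 2.85 ± 0.768, 5.30 ± 0.552, 4.05 ± 1.16 and 3.69 ± 1.24. The E2 and vehicle libraries did not overlap in the basement-membrane and other classes. They did overlap in the fibrillar class, where E2 replicate 1 had 8.61 peaks per 100 kb and vehicle replicate 1 had 10.2. Over all protein-coding windows the density was 2.535 ± 0.501 with vehicle, 4.00 ± 0.533 with E2, 3.09 ± 0.752 with the combination and 3.32 ± 1.135 with fulvestrant. There too the E2 libraries (3.49 to 4.55) lay above the vehicle libraries (2.12 to 3.09).

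**Figure D2:**
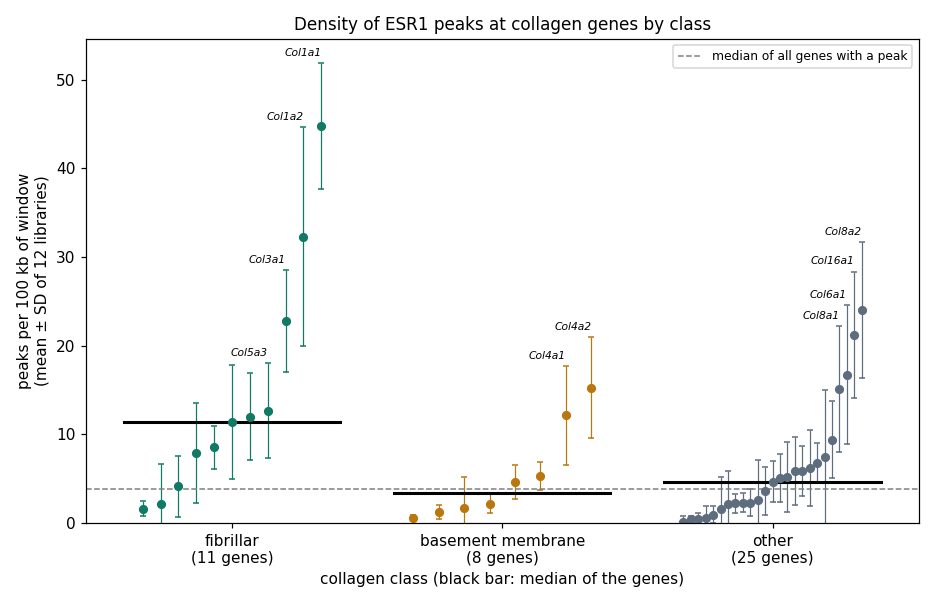
Peaks per 100 kb of window for each of the 44 collagen genes (point, mean of the 12 libraries; bar, SD, drawn from 0 upwards), by class, with the class median in black and the median of all genes with a peak dashed. Col1a1 is highest at 44.8, and the fibrillar median of 11.4 stands above the dashed line at 3.80 while the basement-membrane median of 3.40 lies below it.

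Among fibrillar collagens, Col1a1, Col1a2 and Col3a1 were dense with peaks in all treatments. Col1a1 (chr11:94936224-94953042) encodes the main chain of type I collagen. Its window had 14, 14 and 15 peaks with vehicle, 17, 19 and 17 with E2, 16, 16 and 20 with the combination, and 21, 17 and 12 with fulvestrant. At 44.8 peaks per 100 kb it was above 99.9% of the genes with a peak. Of its 15 regions, places where peaks of any library overlap, 10 were seen in 6 or more libraries and 5 in all 12.

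Col1a2, the partner chain in type I collagen (chr6:4504814-4541544), had 22, 16 and 24 peaks with vehicle, 2, 26 and 26 with E2, 14, 22 and 20 with the combination, and 18, 10 and 20 with fulvestrant. The value of 2 is E2 replicate 1, and without it the E2 libraries lay above those of vehicle. Col3a1, the type III chain that mixes with type I in fibrils, had 19, 12 and 14 peaks with vehicle, 7, 15 and 14 with E2, 13, 13 and 15 with the combination, and 12, 8 and 17 with fulvestrant. Its groups overlapped in every comparison.

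The type V collagens, which regulate the start and width of type I fibrils, differed among themselves. Col5a1 (chr2:27886425-28039514) had 16, 9 and 9 peaks with vehicle, 20, 25 and 30 with E2, 11, 15 and 38 with the combination, and 11, 40 and 12 with fulvestrant. Col5a2 had 16, 5 and 12 with vehicle, 1, 21 and 31 with E2, 8, 9 and 17 with the combination, and 8, 3 and 11 with fulvestrant. Col5a3 had 6, 4 and 5 with vehicle, 11, 10 and 10 with E2, 7, 7 and 8 with the combination, and 8, 17 and 6 with fulvestrant. For Col5a1 and Col5a3 all E2 libraries exceeded all vehicle libraries, and for Col5a3 they also exceeded all 3 libraries with the combination. Col24a1, a fibrillar collagen first described in bone and cornea, had the second-highest number of peaks of the 44 genes (23.8 per library), with 24, 14 and 13 for vehicle, 17, 25 and 32 for E2, 30, 26 and 30 for the combination, and 30, 17 and 28 for fulvestrant.

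Among the cartilage-type fibrillar collagens, Col27a1 had 3, 3 and 1 with vehicle, 9, 8 and 8 with E2, 3, 3 and 6 with the combination, and 3, 19 and 4 with fulvestrant. Its E2 libraries lay above those of vehicle and of the combination. Col2a1 had peaks in only 4 of the 12 libraries, with 7 in E2 replicate 1 and 4 in fulvestrant replicate 2, and Col11a1 had 0 to 6. Col11a2 had 4 to 12 peaks, and one of its 2 regions seen in all libraries lay at the start of the neighbouring gene Rxrb.

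In the basement-membrane class, the pair Col4a1 and Col4a2 held most of the peaks. They encode the chains of the most widespread type IV trimer and are transcribed away from a shared start on chromosome 8. Col4a1 had 14, 6 and 11 peaks with vehicle, 10, 20 and 24 with E2, 11, 17 and 27 with the combination, and 11, 30 and 15 with fulvestrant. Col4a2 had 22, 14 and 16 with vehicle, 14, 29 and 29 with E2, 12, 23 and 38 with the combination, and 27, 38 and 25 with fulvestrant, and was the richest of the 44 genes at 23.9 peaks per library. For Col4a2 all fulvestrant libraries exceeded all vehicle libraries, and the E2 and vehicle libraries overlapped. The windows of this pair share 39 peaks over the 12 libraries.

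The remaining type IV genes were sparse. Col4a4, a chain of kidney and lung basement membranes, had 6, 6 and 4 peaks with vehicle, 11, 10 and 11 with E2, 6, 8 and 11 with the combination, and 7, 11 and 9 with fulvestrant, and its E2 and fulvestrant libraries both lay above vehicle. Col4a3 had 1 to 7 peaks, Col4a5 0 to 3 and Col4a6 1 to 9. The multiplexins, which carry an endostatin-type fragment at their end, were unlike each other. Col15a1 had 6, 6 and 1 peaks with vehicle, 9, 8 and 7 with E2, 5, 6 and 7 with the combination, and 4, 8 and 2 with fulvestrant. Col18a1 had 13 peaks in E2 replicate 1, 11 in fulvestrant replicate 2 and 0 to 2 in the other 10 libraries.

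In the class of other collagens, the short-chain collagens of vessel walls and cornea stood out. Col8a1 had 25, 13 and 29 peaks with vehicle, 6, 31 and 35 with E2, 16, 26 and 39 with the combination, and 19, 7 and 27 with fulvestrant. Col8a2 had 7, 9 and 10 with vehicle, 17, 13 and 12 with E2, 8, 9 and 9 with the combination, and 13, 19 and 11 with fulvestrant. The Col8a2 counts with E2 exceeded those with vehicle and those with the combination, and so did the counts with fulvestrant alone exceed those with vehicle.

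The fibril-associated collagens, which sit on the surface of other fibrils, ranged from rich to empty. Col16a1 had 13, 11 and 12 peaks with vehicle, 24, 17 and 14 with E2, 9, 15 and 20 with the combination, and 10, 24 and 13 with fulvestrant. Col14a1 had 15, 4 and 11 with vehicle, 11, 19 and 26 with E2, 12, 16 and 24 with the combination, and 7, 8 and 11 with fulvestrant. Col12a1 had 8, 1 and 7 with vehicle, 4, 15 and 14 with E2, 6, 8 and 19 with the combination, and 4, 3 and 9 with fulvestrant. E2 and vehicle libraries overlapped for Col14a1 and Col12a1, and for Col16a1 every E2 library exceeded every vehicle library. Col9a1, a cartilage collagen, had 2 peaks in E2 replicate 1 and 0 elsewhere.

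The beaded-filament type VI genes had a mean of 2.83 to 7.50 peaks per library, and Col6a1 had the most per length among them, at 16.7 per 100 kb. Col6a1 had 3 to 14, Col6a2 3 to 10 and Col6a3 0 to 9, and these 3 chains form the common type VI trimer of muscle. Col6a6 had 7, 1 and 1 peaks with vehicle and 9, 13 and 11 with E2. It had 9, 9 and 11 with the combination and 7, 7 and 5 with fulvestrant. All 6 libraries given E2 thus lay above all 6 not given it. Among the 30000 strongest peaks of each list, Col6a6 had 2, 1 and 1 with vehicle and 3, 3 and 3 with fulvestrant. There it had 2, 7 and 5 with E2 and 5, 6 and 5 with the combination. The value of 2 with E2 is replicate 1, so the separation was not kept. The other libraries given E2 stayed above all those not given it. Col26a1 had 21 peaks in E2 replicate 1, 9 in fulvestrant replicate 2 and 0 to 3 in the other 10 libraries. Col10a1, Col13a1 and Col9a1 had no peak outside those 2 libraries, and with all 12 libraries no member was without a peak.

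**Figure D3:**
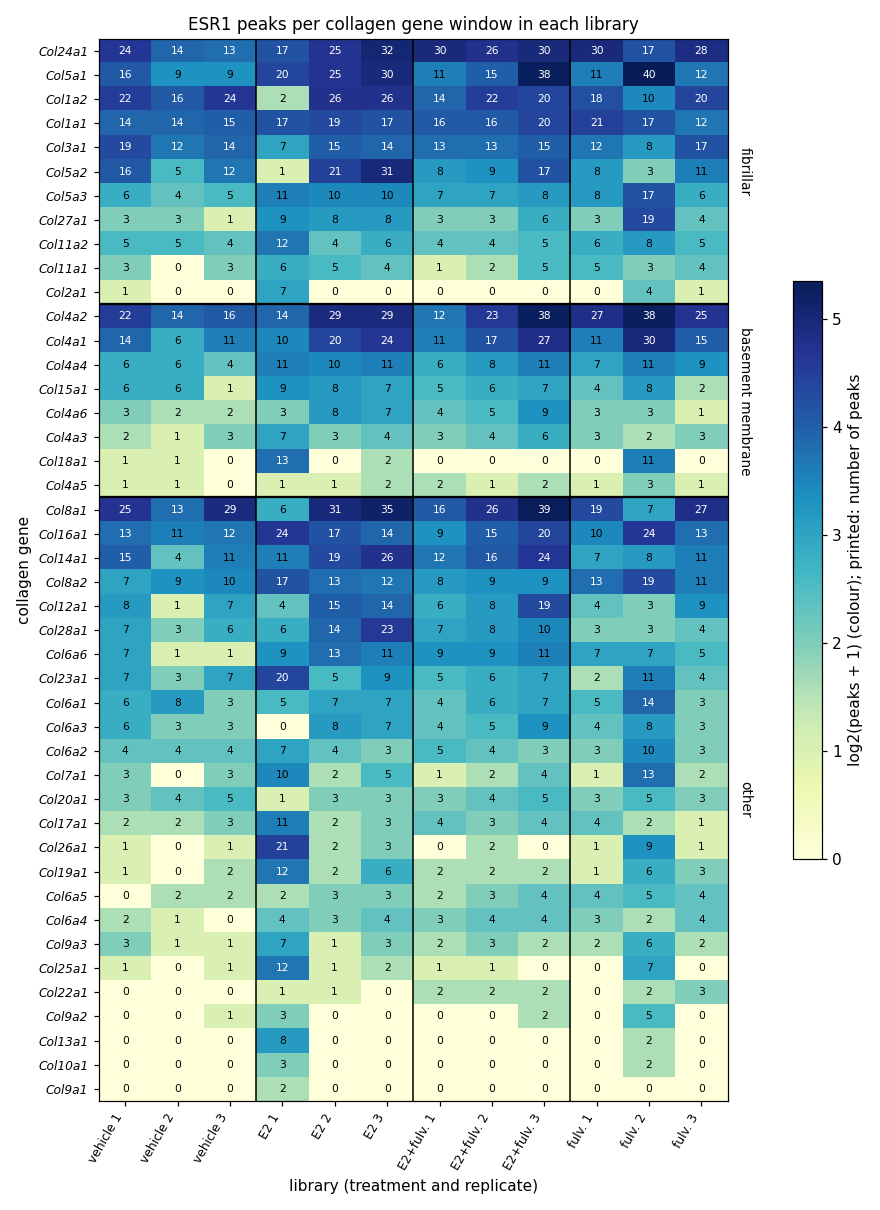
Number of ESR1 peaks (printed; colour on a log2 scale) in the window of each of the 44 collagen genes, ordered by class and mean, in each of the 12 libraries. Col4a2 and Col24a1 are the richest rows, at 23.9 and 23.8 peaks per library, and rows such as Col18a1 and Col26a1 are filled mainly in E2 replicate 1 and fulvestrant replicate 2.

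Counted over the members, E2 exceeded vehicle in every library pair for 12 of 44 genes: Col1a1, Col4a4, Col5a1, Col5a3, Col6a4, Col6a6, Col8a2, Col11a1, Col15a1, Col16a1, Col26a1 and Col27a1. No member was lower in every pair. Over all 19600 genes with a peak, 8.80% were higher and 0.474% lower by the same rule. Genes with many peaks pass such a rule more readily. Among genes with a mean of 5 or more peaks, 14.5% were higher, and 9 of the 23 collagens of that kind were. The median difference of E2 minus vehicle was 3.50 peaks for the collagens and 0.667 for all genes, and it was above 0 for 41 of 44 collagens and 78.2% of all genes. These differences were not scaled to level, and the median collagen had 5.33 peaks per library over the 12 libraries against 2 for all genes with a peak. Without E2 replicate 1 and fulvestrant replicate 2, 24 of 41 collagens with a peak were higher, against 18.8% of 16367 genes. With peaks per 10000 of the list in place of numbers, the count in all 12 libraries was 1 of 44, against 3.05% of all genes, and without these 2 libraries it was 12 of 41, against 8.13%.

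Fulvestrant given with E2 separated fewer members from E2. Col5a3, Col8a2 and Col27a1 had more peaks in every E2 library than in every library with the combination (3 of 44, all genes 4.11%; among genes with a mean of 5 or more, 3 of 23 and 5.37%). Col22a1, a collagen of tissue junctions, was the 1 member that was lower with E2, with 1, 1 and 0 peaks against 2, 2 and 2 (all genes 0.663%). The count was 10 without E2 replicate 2 (all genes 10.6%), 8 without combination replicate 3 (all genes 11.7%) and 6 without E2 replicate 1 (all genes 8.54%), and it was 0 with peaks per 10000 of the list and with the 30000 strongest peaks (all genes 2.29% and 1.23%). The median difference of E2 minus the combination was 1.33 peaks for collagens and 0.667 for all genes.

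Some members were higher than vehicle in the fulvestrant or the combination libraries. With fulvestrant alone these were Col4a2, Col4a4, Col6a5 and Col8a2 (4 of 44, all genes 2.94%), and none was lower (all genes 0.393%). With the combination they were Col1a1, Col4a6, Col5a3, Col6a4, Col6a6, Col22a1 and Col24a1 (7 of 44, all genes 3.19%), and none was lower (all genes 0.444%). These comparisons share the vehicle libraries with that of E2. With 3 libraries a side an exact permutation test cannot go below p = 0.1, so none of them can pass a threshold of 0.05.

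The 6 libraries given E2 were set against the 6 not given E2 with a two-sided exact permutation test of the mean number of peaks, whose smallest p is 0.00216. No gene passed after Benjamini-Hochberg adjustment (0 of 44 members, background 0%). At an unadjusted p under 0.05, 6 members were higher with E2 (Col4a3, Col4a6, Col6a4, Col6a6, Col14a1 and Col28a1), and 2.45% of all genes were. Col6a6, whose protein is a type VI chain, gave the smallest p (exact permutation p = 0.00216, adjusted p = 1). It had 10.3 peaks on average given E2 and 4.67 without. As described above, its libraries did not stay separate among the 30000 strongest peaks of each list. Col28a1, a beaded-filament collagen of nerve, had 7, 3 and 6 peaks with vehicle, 6, 14 and 23 with E2, 7, 8 and 10 with the combination, and 3, 3 and 4 with fulvestrant (exact permutation p = 0.0108, adjusted p = 1).

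Merging the peaks of all 12 lists gave 228284 regions, 1108 of them in collagen windows. Of the collagen regions 618 (55.8%) were seen in 1 library, 171 in 6 or more and 37 in all 12. E2 replicate 1 held 192 and fulvestrant replicate 2 held 138 of the 618. Most collagen regions were intronic (70.1%, against 56.4% of the regions in all protein-coding windows), and 14.6% lay within 3 kb of an annotated transcript start (26.4% for all). Of the 37 regions seen in all 12 libraries, 21 were at a start, 13 of these at the start of a collagen gene and 8 at that of another gene in the window.

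Motif content is a description of the letters near the summit. Of the 171 regions in 6 or more libraries, 24 (14.0%) held the AP-1 sequence TGANTCA, 26 (15.2%) the TEAD sequence GGAATG on either strand and 3 (1.75%) an ERE with at most 1 mismatch. Over all regions in 6 or more libraries and protein-coding windows the shares were 6.60%, 10.8% and 2.72%. These sets differed in place, with 24.6% of the collagen regions and 53.3% of those in all protein-coding windows within 3 kb of a transcript start. Over all regions in 6 or more libraries, inside or outside such windows, the motif shares were 8.3%, 12.2% and 3.39%. In fibrillar windows 12 of 65 such regions had the AP-1 sequence. In the RefSeq promoter windows (GRCm38.p6, 250 bases before to 50 after the start), 35 of the 44 genes were matched, and 0 held an ERE, 1 the AP-1 sequence and 5 the TEAD sequence, against 0.995%, 8.97% and 16.6% of 27025 genes.

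The start sites of the main fibrillar genes were occupied throughout. A peak within 3 kb of its own start was present in all 12 libraries for Col1a1, Col1a2, Col3a1, Col4a1, Col4a2, Col5a1, Col6a1, Col6a2, Col8a1, Col11a2, Col16a1 and Col20a1. These are 12 of 44 members (27.3%), beside 31.0% of all protein-coding genes. By class they were 5 of 11 fibrillar, 2 of 8 basement-membrane and 5 of 25 other collagens, and Col5a2 and Col11a1 had such a peak in 11 libraries. Col6a4, Col9a1, Col10a1, Col22a1 and Col28a1 had none. At the Col1a1 start (region chr11:94935474-94941213), the fold enrichment at the summit, as given by the authors' peak caller, was 6.05, 5.32 and 5.05 with vehicle, 4.39, 5.72 and 9.35 with E2, 4.68, 4.58 and 5.12 with the combination, and 6.39, 5.97 and 6.07 with fulvestrant. The groups overlapped.

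**Figure D4:**
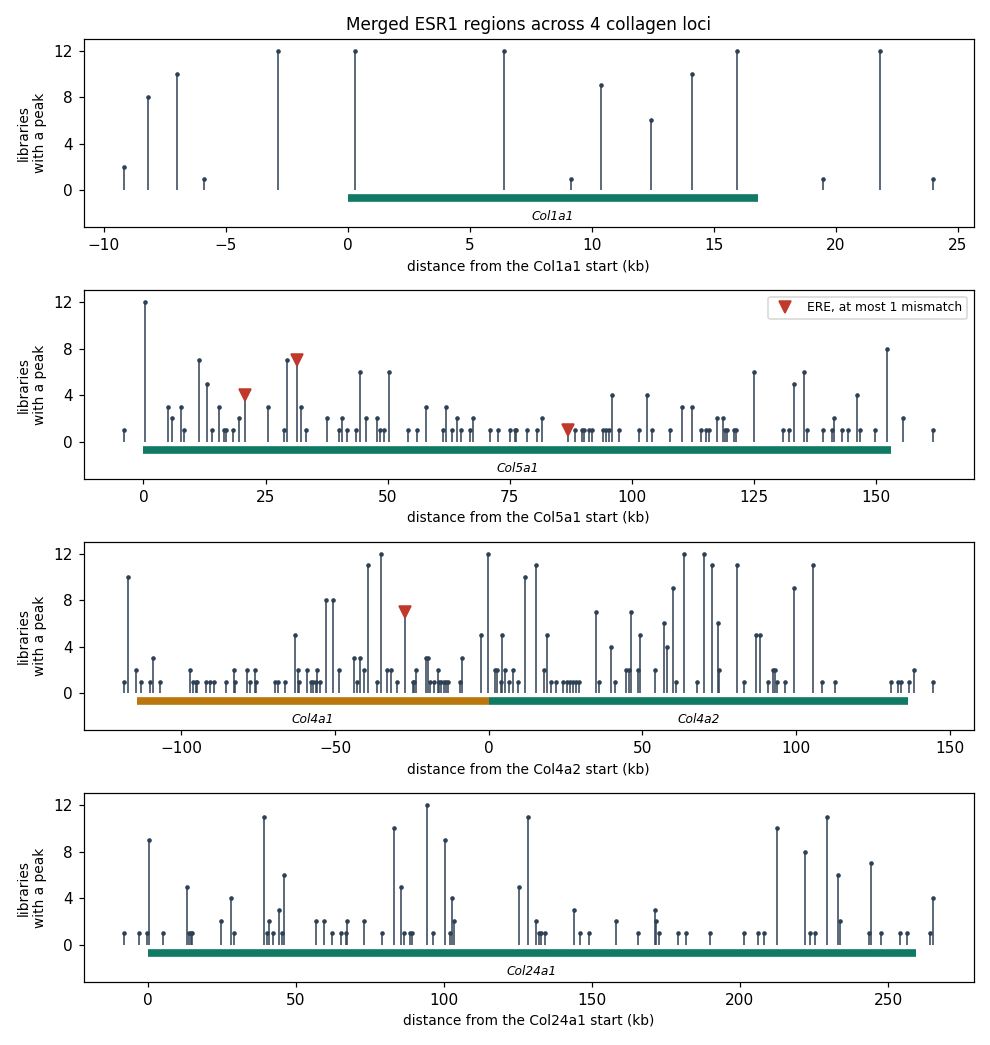
Merged ESR1 regions across Col1a1, Col5a1, the Col4a1-Col4a2 pair and Col24a1, placed by distance from the gene start in kb; the height of each line is the number of libraries (of 12) with a peak, bars below mark gene bodies, and red triangles mark an ERE with at most 1 mismatch. The Col1a1 window has 5 regions in all 12 libraries, and the Col4a1 and Col5a1 elements lie in introns away from the start.

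Presence of a peak was compared next. Regions found in all 3 E2 and no vehicle library numbered 6 of 1108 in collagen windows, 1 each at Col4a2, Col5a1, Col5a3, Col6a5, Col6a6 and Col8a2, with 0.344% of all regions as background. Those at Col6a5 and Col8a2 lay at the gene start, and the one at Col5a1 had 57.2% of the bases around its summit repeat-masked. No collagen region showed the opposite pattern (all regions 0.0162%). Against the combination, 2 regions were in all E2 libraries only, at Col5a1 and Col6a5 (all regions 0.207%), and 4 were in all combination libraries only, at Col4a1, Col5a1, Col22a1 and Col24a1 (all regions 0.0732%). The Col5a1 region in all E2 libraries was here another one, with 50.25% of the bases around its summit repeat-masked. Without E2 replicate 1, alone or together with fulvestrant replicate 2, these counts for E2 rose from 6 to 45 against vehicle and from 2 to 19 against the combination. Without both libraries they were 6.21% and 2.62% of 725 collagen regions, beside 6.23% and 2.90% of all regions. With 12 libraries, the region at the Col6a5 start (chr9:105960334-105961086) thus had peaks in the 3 E2 libraries alone, although 1 fulvestrant library had another peak within 3 kb of that start. Col6a5 encodes a further type VI chain.

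Against vehicle, 10 collagen regions were in all libraries with the combination (all regions 0.569%) and 4 in all with fulvestrant alone (all regions 0.144%). None was in all vehicle libraries and missing from either group (all regions 0.0434% and 0.0924%). The 10 included the Col5a1 intron with the ERE of 1 mismatch, which had a peak in 0 vehicle, 2 E2, 3 combination and 2 fulvestrant libraries. By Fisher's exact test of the 6 libraries given E2 against the 6 not given it, 0 of 274 collagen regions seen in 3 to 11 libraries passed the adjustment (background 0%). At an unadjusted p under 0.05, 1 was more frequent with E2 (all regions 0.870%) and 0 less frequent (all regions 0.0120%). That region was an exon of Col6a6 (chr9:105701982-105702563), present in 5 of 6 libraries given E2 and 0 of 6 others (Fisher's exact p = 0.0152, adjusted p = 1). Without E2 replicate 1 and fulvestrant replicate 2, 14 of 224 collagen regions were more frequent with E2 at an unadjusted p under 0.05 (all regions 7.02%) and 1, at Col3a1, was less frequent (all regions 0.0419%), and 0 passed the adjustment by Fisher's exact test.

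Peak strength was compared by limma on the quantile-normalized log2 fold enrichment of the 7816 regions seen in all 12 libraries, 37 of them at collagens. Differences on this normalized scale can be smaller than those of the listed folds. No collagen region was called for any treatment. For given E2 against not given E2, 0 of 37 passed an adjusted p of 0.05 and the background was 0.230%, and at an unadjusted p under 0.05 there were 5 higher (4.73% of all regions) and 0 lower. The median difference was 0.05 on the log2 scale for the collagen regions and -0.02 for all. For E2 against vehicle, 1 collagen region was higher (2.97% of all regions) and 1 lower at an unadjusted p under 0.05.

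This count changed without E2 replicate 1. Without it, 10337 regions were seen in the remaining 11 libraries, and 5 of 52 collagen regions were called higher with E2, beside 5.98% of all regions. They lay at Col4a4 (2 regions), Col24a1, Col4a2 and Col5a3. With all 12 libraries but regions in 2 of 3 libraries of every treatment, 5 of 102 collagen regions were called higher, beside 4.25% of all regions. Of these, 3 lay in Col24a1 and 1 each at Col15a1 and Col5a3. In this setting a library without a listed peak gave no value for that region. E2 replicate 1 thus gave none at the Col24a1 regions described below, so their calls again leave it out. For the combination against vehicle without E2 replicate 1, 2 of 52 were called higher, at Col24a1 and Col5a3, beside 1.93% of all. The regions described next are named because they passed in these settings, after their values were seen.

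One of them lay in a Col24a1 intron, 229378 bp from the gene start (chr3:145520822-145523446). Its fold enrichment was 7.87, 6.99 and 6.51 with vehicle, no peak, 24.6 and 29.0 with E2, 21.4, 30.7 and 26.1 with the combination, and 7.80, 6.71 and 9.63 with fulvestrant. The recovered fragments at the summit were 34 to 62 in libraries not given E2 and 124 to 186 in the 5 given E2 that had the peak. Every library of the combination lay above every vehicle library. Without E2 replicate 1, the difference for given E2 was 1.06 ± 0.198 on the log2 scale (SE, limma adjusted p = 0.000803). A further Col24a1 intron region with the AP-1 sequence shown above (chr3:145372709-145377355) had 4.29, 3.18 and no peak with vehicle, no peak, 10.7 and 12.03 with E2, 6.31, 8.58 and 8.69 with the combination, and 3.35, 4.70 and 3.75 with fulvestrant.

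At Col4a4, an intronic region (chr1:82473416-82478210) had fold enrichments of 6.52, 7.03 and 6.82 with vehicle, 8.12, 18.9 and 20.6 with E2, 12.2, 14.1 and 17.3 with the combination, and 7.62, 3.27 and 5.80 with fulvestrant. In E2 replicate 3 it ranked in the strongest 0.0870% of the list. A region past the end of the gene (chr1:82444937-82447256) had 4.03, 4.79 and 4.96 with vehicle, 2.54, 13.7 and 11.5 with E2, 7.43, 10.2 and 14.7 with the combination, and 3.53, 2.497 and 4.15 with fulvestrant. At both, the low E2 value is replicate 1. Over all 12 libraries the differences for given E2 were 0.69 ± 0.299 and 0.83 ± 0.317 on the log2 scale (limma adjusted p = 0.595 and 0.488), and without E2 replicate 1 they were 0.87 ± 0.203 and 1.10 ± 0.181 (adjusted p = 0.00660 and 0.000241).

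At Col5a3, the downstream region with the ERE and overlapping AP-1 sequence (chr9:20760690-20762331) had 4.66, 3.17 and 3.80 with vehicle, 6.36, 14.0 and 10.5 with E2, 8.11, 12.6 and 12.98 with the combination, and 7.28, 6.30 and 4.14 with fulvestrant. All libraries with E2, alone or with fulvestrant, lay above all vehicle libraries. The difference for given E2 was 0.77 ± 0.228 on the log2 scale with 12 libraries (limma adjusted p = 0.213) and 0.91 ± 0.169 without E2 replicate 1 (adjusted p = 0.000787). For the combination against vehicle it was 1.14 ± 0.226 without that library (adjusted p = 0.00629).

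The Col4a1 intron with the ERE without mismatch was called too seldom for the limma comparison. Its fold enrichment was 3.92 in 1 vehicle library, 8.61 and 7.12 in 2 E2 libraries, 5.98, 6.94 and 8.33 with the combination, and 3.30 in 1 fulvestrant library, and no peak was listed in the other 5 libraries. It was thus found in 5 of 6 libraries given E2 and 2 of 6 others. The Col5a1 intron with the ERE without mismatch had 3.18 in 1 E2 library, 2.29 and 3.48 in 2 libraries with the combination, and 3.32 in 1 fulvestrant library.

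At Col8a2, an intronic region (chr4:126298740-126302981) had its highest value in E2 replicate 1. It had 4.91, 4.61 and 2.89 with vehicle, 41.5, 12.1 and 8.66 with E2, 5.34, 8.60 and 7.15 with the combination, and 5.52, 8.28 and 3.89 with fulvestrant. The value of 41.5 placed it in the strongest 0.0105% of that list. Over 12 libraries the difference for given E2 was 0.86 ± 0.225 on the log2 scale (limma adjusted p = 0.118). Without E2 replicate 1 it was 0.56 ± 0.176 (limma adjusted p = 0.0608), and with array weights it passed at 0.69 ± 0.186 (limma adjusted p = 0.0412).

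**Figure D5:**
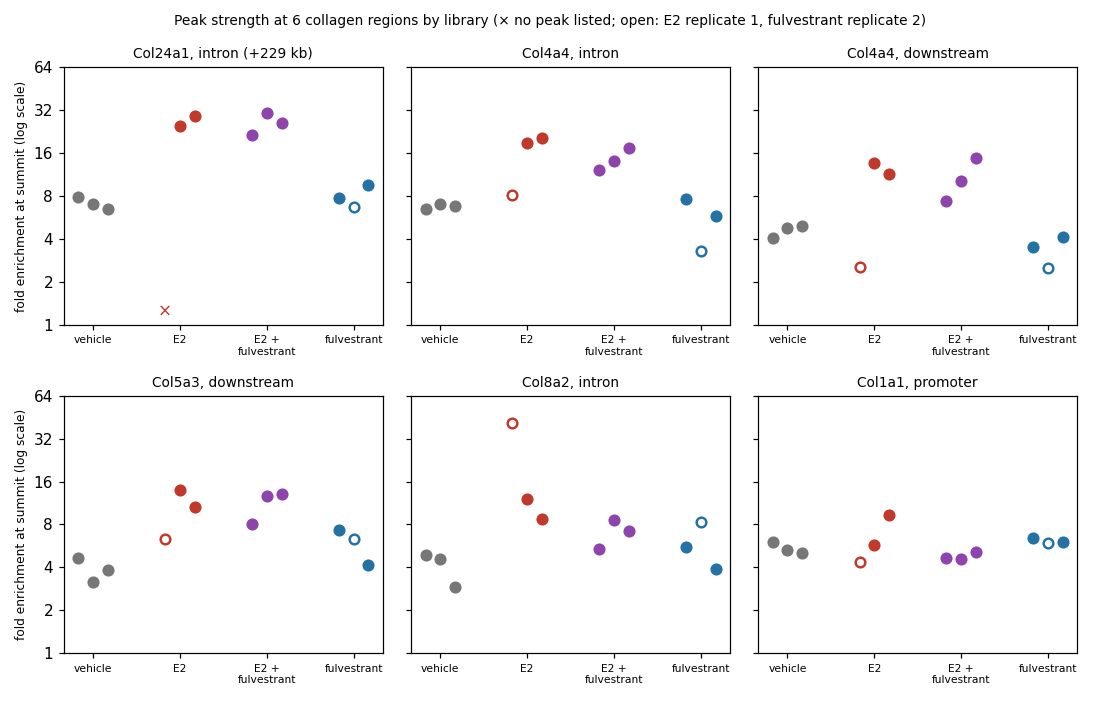
Fold enrichment at the summit (log scale) at 6 collagen regions in each library, by treatment, with E2 replicate 1 and fulvestrant replicate 2 as open circles and a cross where no peak was listed. At the Col24a1 region the 5 libraries given E2 that have a peak lie between 21.4 and 30.7 and the others between 6.51 and 9.63, while the Col1a1 promoter values overlap between treatments.

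Genes that fold, modify, process, cross-link or bind collagen gave a set for comparison. Of these 37 genes all had a peak. A peak within 3 kb of the start was present in all 12 libraries for 22 (59.5%), beside 31.0% of all protein-coding genes. E2 exceeded vehicle in every library pair for 4 of 37, beside 8.80% of all genes. These were Adamts3, which removes a collagen propeptide, Itga11, a collagen-binding integrin, P3h3, a prolyl hydroxylase, and Plod1, a lysyl hydroxylase. Itga1, a further collagen-binding integrin, was the 1 gene of 37 higher with E2 than with the combination, beside 4.11% of all genes. It had 7, 8 and 13 peaks against 2, 4 and 6. Lox, the main collagen cross-linking oxidase, had 10, 9 and 13 peaks with vehicle and 2, 11 and 7 with E2. Serpinh1, the collagen chaperone HSP47, had 10, 11 and 8 with vehicle and 3, 10 and 7 with E2. For both genes the E2 and vehicle libraries overlapped.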

How the data were processed

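ESR1 ChIP-Seq peak lists of 12 libraries, 3 for each of 4 treatments, were analysed. Per the submitters' processing notes and the study's methods, the authors' tools were Trimmomatic 0.39 for trimming, Bowtie2 for alignment (mm10), Picard 2.21.4 for duplicates and MACS2 for peaks, which were called for each library. The deposited columns used were the fold enrichment (a ratio) at the summit, the −log10 p and −log10 q and the summit position, and the deposited score column was not used. Read totals are not in the lists. Fragments at each summit and the local background were recovered from fold and −log10 p, giving whole numbers within a tolerance of 0.1% of the −log10 p for 99.66% of the peaks or more in each library. The 5th percentile of the background, divided by the shortest peak length, gave the relative depth. Its effect on which weak peaks were listed was not tested. A listed fold says nothing about places without a listed peak.

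A peak was assigned by its summit to gene windows (10 kb flanks, GENCODE vM21), so a peak can count for neighbouring members (4 pairs share windows), and overlapping peaks were merged into regions. Peak numbers were compared by exact permutation tests, presence by Fisher's exact test, and strength by limma 3.58.1 (R 4.3.3) on quantile-normalized log2 fold enrichment, with Benjamini-Hochberg adjustment at 0.05 over all genes or regions. Functions were tested on simulated data. Repeat-masked peaks had over 50% of the 201 bases at the summit masked. Named genes were the main LAM collagens, the 5 members with most peaks and the 5 with most per 100 kb, up to 10 whose E2 libraries did not overlap vehicle or the combination, and those with an ERE or a called region. Other collagens (such as Col28a1, Col22a1 and Col2a1), the collagen-processing genes and regions called only in alternatives were named after their values were seen. The members and lists were chosen with earlier results of these data known. By the labels, same-numbered libraries share a number only.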

Additional observations from a re-analysis of the deposited data

How the results depend on the processing

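Settings that set aside the length of the lists turned some of the ratios of collagen totals and not others. The ratio of E2 to vehicle was 0.884 with the 30000 strongest peaks of each list and 0.952 with peaks per 10000 of the list, and that of E2 to the combination was 0.803 and 0.877. Fulvestrant to vehicle was 0.984 and 1.02, and the combination to vehicle stayed above 1 at 1.10 and 1.09. Without E2 replicate 1 and fulvestrant replicate 2, an alternative added after the data were seen, E2 to vehicle was 1.04 with the 30000 strongest peaks and 1.12 per 10000, and E2 to the combination was 0.944 and 1.03. The causes were not tested. The number of members whose E2 libraries all exceeded vehicle was 12 (8.80%, the share of all genes with a peak, as in the brackets that follow). It became 7 without repeat-masked peaks (6.50%), 1 with the 30000 strongest peaks (1.19%) and 1 per 10000 (3.05%). Without both libraries it was 24 (18.8%), and then 5 with the 30000 strongest peaks (4.27%) and 12 per 10000 (8.13%). Against the combination it was 3 (4.11%) and became 5 at q of at most 0.05 (5.39%). It was 0 with the 30000 strongest peaks (1.23%) and 0 per 10000 (2.29%). Without both libraries this count was 6 (9.48%), 0 with the 30000 strongest peaks (3.94%) and 3 per 10000 (8.41%). For fulvestrant against vehicle it was 4 (2.94%), 1 with the 30000 strongest peaks (1.84%), 3 per 10000 (2.755%) and 7 without both libraries (4.83%). For the combination against vehicle it was 7 (3.19%), and 8 with the 30000 strongest peaks (1.865%) and 6 per 10000 (3.40%). Regions in every E2 and no vehicle library numbered 6, and 45 of 725 without both (all regions 6.23%), and those missing from the combination 2, and 19 of 725 without both (all regions 2.90%) or 1 without repeat-masked peaks. Collagen regions called by strength for given E2, 0 of 37 as reported, were 5 of 102 with regions in 2 of 3 libraries (all regions 4.25%), 3 of 37 with array weights (all 2.92%) and 6 of 61 without both libraries (all 7.90%), 5 of the 6 higher and 1, at Col6a1, lower. For the combination against vehicle these were 1, 1 and 5 (all regions 1.18%, 0.755% and 3.82%), and for E2 against vehicle 1 of 61 without both (all 2.30%).

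Leaving out 1 library at a time gave ratios of 1.496 to 1.89 for E2 to vehicle, 1.08 to 1.44 for E2 to the combination, 1.16 to 1.56 for the combination to vehicle and 1.13 to 1.51 for fulvestrant to vehicle. Members past vehicle ranged from 12 to 24 for E2, with 24 without E2 replicate 1 (all genes 16.9%) and 19 without E2 replicate 2 (16.65%). For the combination they ranged from 7 to 15, with 15 without its replicate 1 (all genes 10.3%) and 12 without vehicle replicate 1 (9.62%). For fulvestrant they ranged from 4 to 10, with 10 without vehicle replicate 1 (all genes 9.57%). Without fulvestrant replicate 1, 2 or 3 they were 8, 7 and 7 (all genes 8.98%, 4.10% and 7.1%). For E2 against the combination the range was 3 to 10. It was 10 without E2 replicate 2 (all genes 10.6%), 8 without combination replicate 3 (11.7%) and 6 without E2 replicate 1 (8.54%). With all 12 libraries the shares of all genes were 8.80%, 3.19%, 2.94% and 4.11% in the same order, so they rose along with these counts. Regions in every E2 and no vehicle library ranged from 6 to 45 (45 without E2 replicate 1, 16 without E2 replicate 2, 10 without vehicle replicate 1) and those missing from the combination from 2 to 19 (19 and 10 without E2 replicates 1 and 2, 4 without combination replicate 1 or 3). Shares of all regions are not given for these presence counts. Called regions ranged from 0 to 5 for given E2, with 5 without E2 replicate 1 (all regions 5.98%) and 1 without E2 replicate 3 (share of all regions not given). For the combination against vehicle they ranged from 0 to 2, with 2 without E2 replicate 1 (all regions 1.93%).

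With the replicate number as a block, limma called 0 of 37 collagen regions in every comparison, and 26 of all regions for given E2 against 18 without the block. Deviations of same-numbered libraries from their group means correlated at -0.474 to 0.339, and those of differently numbered libraries at -0.489 to 0.631. Between the replicate 3 libraries every correlation was positive, at 0.02 to 0.339. These values do not settle whether same-numbered libraries were paired, and the labels name no pairing. The recovered depth was lowest in E2 replicate 1 (39.1% of the median library), whose list was the longest at 104571 peaks. The effect of depth on which weak peaks were listed was not tested.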
